A study of Mus musculus with 6 samples.

Results

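The genes described here are 29 genes of cholesterol and fatty acid synthesis, among 16748 named genes kept on arrays of mouse embryonic fibroblasts. They were chosen by name, from the gene name that the array design gives each probe, and not by a measured value. Earlier results of these data were known when the list was made. The 29 genes had 44 probes, and each gene is represented by its probe with the highest mean level. The sterol arm holds 16 genes, the regulators and sterol handling genes number 5, and the fatty acid arm holds 8. All 29 were well above background on all 6 arrays, so the filter on dim probes removed no member.

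Mouse embryonic fibroblasts (MEFs) are connective tissue cells grown from embryos. By the labels they were all of strain ICR and were grown in medium with serum. The groups were Per2m/m cells with a vector expressing H-Ras and SV40T, Per2m/m mock cells, Clk/Clk cells with the vector, Clk/Clk mock cells, wild type cells with the vector, and wild type mock cells. Each group was measured on 1 array, so nothing here has a replicate. H-Ras is a small GTPase and an oncogene product in its active form. SV40T is the T antigen of a polyomavirus, known to inactivate p53 and RB. PER2 is a repressor of the circadian clock and CLOCK is one of its activators. The series design calls the Clk/Clk cells Clock mutants, and the labels give the other mutant only as Per2m/m. For the transfected Per2m/m sample, the source name mentions H-Ras and not SV40, while its characteristic names both. The promoter of the vector, the number of clones and any pooling of embryos are not given in the sources used here.

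Cells build cholesterol from acetyl-CoA through mevalonate, farnesyl diphosphate, squalene and lanosterol, and they build fatty acids from the same acetyl-CoA. The genes of both routes are targets of the SREBP transcription factors. When sterols are plentiful, INSIG proteins hold SREBP and its escort SCAP in the endoplasmic reticulum, and when sterols are scarce SCAP carries SREBP to the Golgi, where it is cut and released to the nucleus. SREBP-2, the product of Srebf2, acts mainly on sterol genes, and SREBP-1c, a product of Srebf1, acts mainly on fatty acid genes. The liver X receptors respond to oxysterols, and their targets include the sterol exporters Abca1 and Abcg1 and also Srebf1. In dividing fibroblasts both routes supply membrane lipid.

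A level below is the log2 of a probe's signal over the 75th percentile of its array. A response is the level on the transfected array minus that on the mock array of the same genotype, so 1 is a 2-fold difference. Levels of different genes come from different probes, and those of the 29 members are not set against each other. Sums of marker levels add different probes and so weigh bright probes most. Repeated spots of a probe gave a spread of 0.09 (log2) for a ratio of 2 arrays, which covers spot noise only. The arrays lay on 1 slide, with both Per2m/m arrays in slide row 2 and the other 4 in row 1, so slide row and the Per2m/m genotype cannot be told apart.

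The array of transfected Per2m/m cells was the least like the rest. Its correlations with the other arrays over genes had a median of 0.854, against medians of 0.931 to 0.945 for each of the others. Of its spots 49.3% were well above background, against 53.5% to 57.3% elsewhere. Xist, Ddx3y and Eif2s3y, genes of the X and Y chromosomes, were well above background in mock Per2m/m cells and not in transfected ones, where they were at least 16.7-fold, 23.3-fold and 13.8-fold lower. Xist was also not well above background on the transfected and mock Clk/Clk arrays (-6.63 and -6.79). On the transfected and mock wild type arrays it was (-0.95 and -1.02). Ddx3y and Eif2s3y were well above background on all Clk/Clk and wild type arrays. Whether both Per2m/m arrays hold cells of 1 culture was not tested, and every Per2m/m response below compares the 2 arrays that carry this label. Of 10 fibroblast markers, 8 were well above background on the transfected Per2m/m and wild type arrays and 10 on the other 4 arrays, and Lum and Fap were the markers not well above background. At least 2-fold lower in transfected than in mock cells were 7 of these 10 in the Per2m/m genotype, 1 in the Clk/Clk and 5 in the wild type genotype, counted at measured levels. Of all genes 20.8%, 4.12% and 11.8% were lower by that much, in the same order. Thy1 was 218-fold and Col3a1 12.1-fold lower in transfected Per2m/m cells, while Col1a2 lay 0.49 (log2) higher. The summed linear level of the fibroblast markers was 991 against 1195 (transfected against mock) in Per2m/m cells, 955 against 1252 in Clk/Clk cells and 1036 against 1453 in wild type cells. Col1a2 was the brightest of these markers on every array. Epithelial markers differed in both directions on the transfected Per2m/m array. Krt14 had a level of 2.57 there, against -4.12 on the mock Per2m/m array, and Cdh1 and Krt8 were well above background on that array alone. Krt18 was at least 16-fold lower there, and Krt5 had a response of -0.16. The 5 epithelial markers summed to 6.33 on that array, most of it Krt14, and to 0.222 to 0.823 on the other 5. Fewer cells of a type and less RNA per cell cannot be told apart in these bulk samples. The 5 proliferation markers had a median response of 0.25 in Per2m/m, 0.65 in Clk/Clk and 1.34 in wild type cells. Of 6 adipocyte markers 4 were kept, and Adipoq and Cidec were not. In transfected Per2m/m cells Pparg was 39.7-fold and Fabp4 at least 72.1-fold lower than in mock cells, Plin1 was not well above background on either array, and Lpl was 5.27-fold higher. Lpl had responses of 2.40 in Per2m/m, -1.78 in Clk/Clk and 1.37 in wild type cells. The 4 markers summed to 19.0 against 13.8 in Per2m/m cells, most of it Lpl on the transfected array, to 5.17 against 15.6 in Clk/Clk cells and to 16.2 against 10.3 in wild type cells. The part of these differences in the results below was not tested.

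The sterol arm was higher in transfected than in mock cells of the Per2m/m and wild type genotypes and lower in transfected Clk/Clk cells. Its median response was 1.34 in Per2m/m, -0.39 in Clk/Clk and 0.92 in wild type cells, against 0.12, 0.02 and -0.00 for all genes. The response lay above 0 for 15 of 16 genes in Per2m/m, 0 of 16 in Clk/Clk and 15 of 16 in wild type cells. A 2-fold or larger excess was found for 9 of 16 genes in Per2m/m cells, beside 18.6% of all genes. In Clk/Clk cells none was at least 2-fold higher, beside 3.74% of all genes, and Tm7sf2 was the 1 gene at least 2-fold lower, beside 4.12%. In wild type cells 7 of 16 were at least 2-fold higher, beside 7.52%, which was 3 of 16 with quantile normalization, and none was 2-fold lower, beside 11.8%. The 3 responses use different arrays. Of the adipocyte markers, Lpl had the same signs in the 3 genotypes and Pparg and Fabp4 did not, and their part was not tested. Over the 6 arrays, 11 of the 16 genes had their highest level on the transfected Per2m/m array and 8 had their lowest on the mock wild type array. In the fatty acid arm 3 of 8 were highest on the transfected Per2m/m array and 4 on the transfected wild type array.

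The fatty acid arm ran the same way in wild type cells but less far in Per2m/m cells. Its median response was 0.41 in Per2m/m, -0.11 in Clk/Clk and 0.78 in wild type cells. The response lay above 0 for 6 of 8 genes in Per2m/m, 2 of 8 in Clk/Clk and 8 of 8 in wild type cells. At least 2-fold higher were 3 of 8 in Per2m/m cells (Scd1, Scd2 and Fads2) and 2 of 8 in wild type cells (Elovl6 and Fads2), beside the same shares of all genes. Fads2 is counted by its brighter probe, and its dimmer probe was under 2-fold in both genotypes. In Clk/Clk cells Scd2 was the 1 gene at least 2-fold lower. No member of the fatty acid arm was 2-fold lower in Per2m/m cells, beside 20.8% of all genes. The Per2m/m response minus the wild type response had a median of 0.46 in the sterol arm and -0.36 in the fatty acid arm, and these differences share the same arrays for all genes and have no test.

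**Figure D1:**
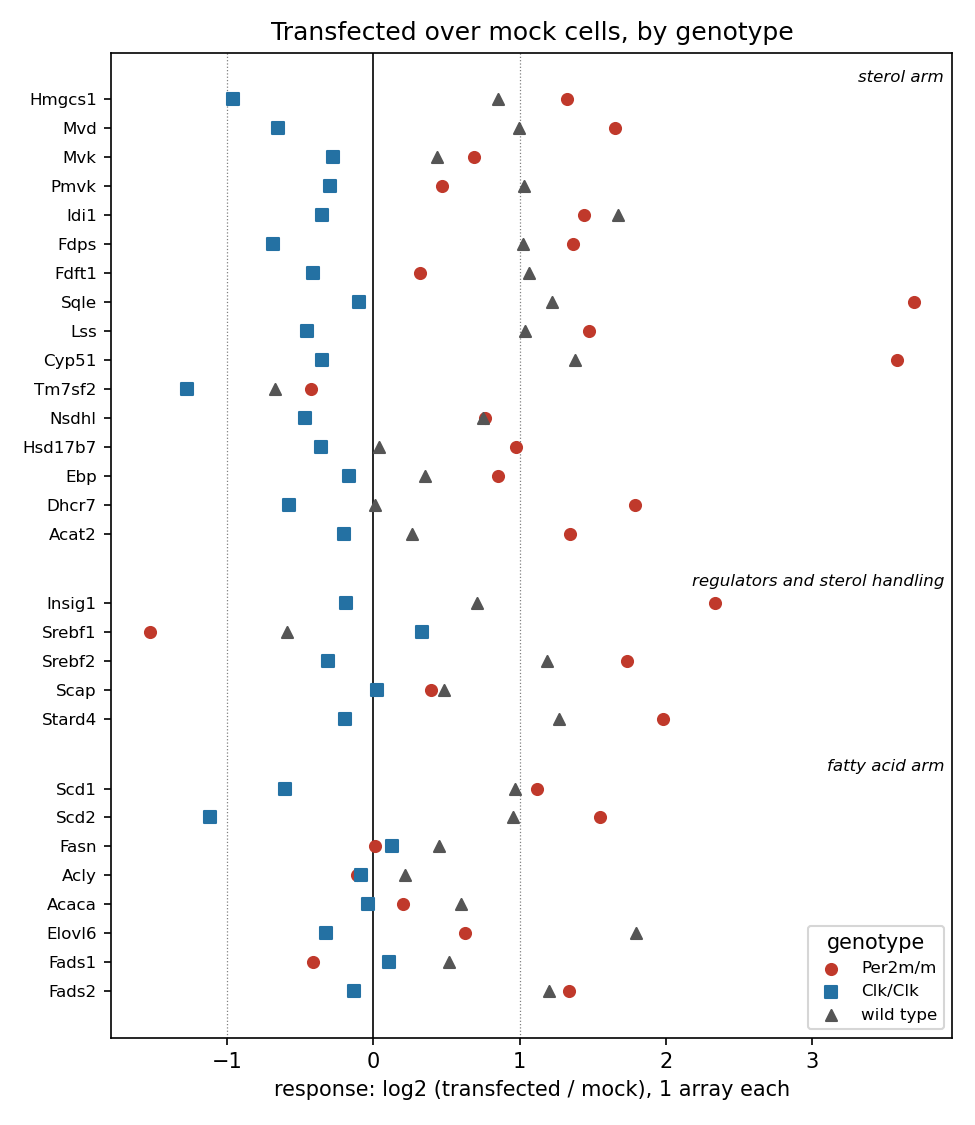
Response of each of the 29 genes, as log2 of the transfected over the mock array, with 1 point for each genotype and dotted lines at 2-fold. Sqle and Cyp51 lie farthest right in Per2m/m cells, at 3.70 and 3.58, and all 16 sterol arm squares (Clk/Clk) lie left of 0.

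**Figure D2:**
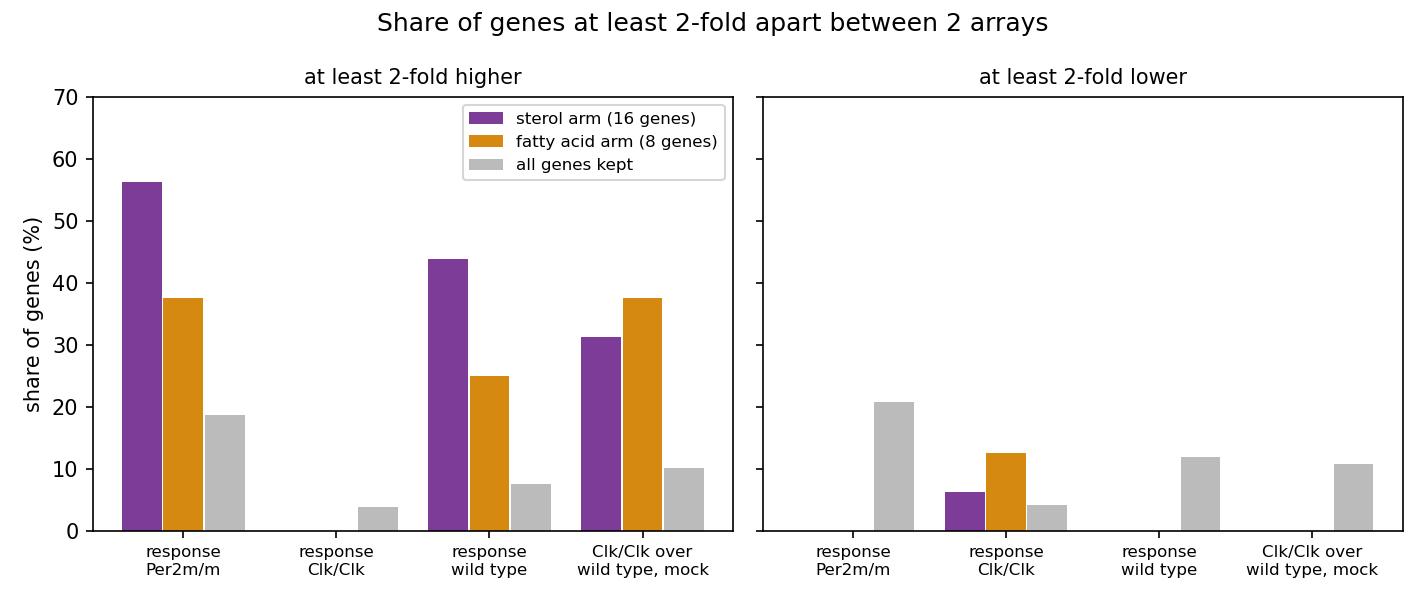
Share of genes (percent) at least 2-fold higher (left) and lower (right) in 4 comparisons, for the sterol arm, the fatty acid arm and all genes kept. In wild type cells 43.8% of the sterol arm and 25% of the fatty acid arm were at least 2-fold higher after transfection, beside 7.52% of all genes.

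Among the genes that lead to farnesyl diphosphate (7 genes), the median response was 1.35 in Per2m/m, -0.35 in Clk/Clk and 1.00 in wild type cells. Hmgcs1, which makes HMG-CoA, had levels of 5.18 against 3.85 in Per2m/m cells, 3.84 against 4.79 in Clk/Clk cells and 4.75 against 3.90 in wild type cells, transfected against mock throughout. Its response was 1.33 in Per2m/m, -0.96 in Clk/Clk and 0.85 in wild type cells. Mevalonate diphosphate decarboxylase, Mvd, had levels of 2.30 against 0.66 in Per2m/m cells, 0.87 against 1.52 in Clk/Clk cells and 1.44 against 0.45 in wild type cells. The transfected cells were thus higher in 2 genotypes and lower in the Clk/Clk genotype for both genes. Idi1, the isopentenyl diphosphate isomerase, had levels of 3.68 against 2.24 in Per2m/m cells, 2.69 against 3.04 in Clk/Clk cells and 3.84 against 2.17 in wild type cells. It was the sterol arm gene with the highest response in wild type cells, 1.67. Farnesyl diphosphate synthase, Fdps, had levels of 6.23 against 4.86 in Per2m/m cells, 4.30 against 4.99 in Clk/Clk cells and 5.17 against 4.14 in wild type cells. Its mock Per2m/m level was 0.72 above that of mock wild type cells, the largest such difference in the sterol arm. The kinases Mvk and Pmvk, which phosphorylate mevalonate in turn, had Per2m/m responses of 0.69 and 0.47, Clk/Clk responses of -0.28 and -0.30, and wild type responses of 0.44 and 1.03. Acat2, which joins acetyl-CoA units at the start of the route, had levels of -0.20 against -1.54 in Per2m/m cells, 0.38 against 0.58 in Clk/Clk cells and -1.25 against -1.52 in wild type cells. It stood apart by genotype, since both Clk/Clk arrays lay above the other 4 arrays.

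The segment from farnesyl diphosphate to lanosterol holds 3 genes. Squalene epoxidase, Sqle, a rate-limiting step, had levels of 7.47 against 3.77 in Per2m/m cells, 4.59 against 4.69 in Clk/Clk cells and 5.11 against 3.88 in wild type cells. This was the largest response of the 29 genes, 13-fold in Per2m/m cells, against 2.33-fold in wild type cells. The probe lies at chr15:59162688-59162747 (+ strand) of mm9. Lanosterol synthase, Lss, had levels of 1.52 against 0.05 in Per2m/m cells, 0.95 against 1.41 in Clk/Clk cells and 1.10 against 0.06 in wild type cells. Squalene synthase, Fdft1, had levels of 1.86 against 1.54 in Per2m/m cells, 2.67 against 3.09 in Clk/Clk cells and 2.74 against 1.67 in wild type cells, by the brighter of its 2 probes. The dimmer probe was not well above background on the transfected Per2m/m and mock Clk/Clk arrays. It was at least 2.15-fold higher in transfected than in mock Clk/Clk cells, where the brighter probe gave -0.42, and its wild type response was -0.11, against 1.07 from the brighter probe. In Per2m/m cells it was at least 1.01-fold lower, a bound within the spot spread. Fdft1 is counted in the arm by its brighter probe, and without it the response lay above 0 for 14 of 15 sterol arm genes in Per2m/m, 0 of 15 in Clk/Clk and 14 of 15 in wild type cells. At least 2-fold higher were then 9 of 15 in Per2m/m and 6 of 15 in wild type cells.

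Genes that act after lanosterol (6 genes) had median responses of 0.92 in Per2m/m, -0.42 in Clk/Clk and 0.20 in wild type cells. Lanosterol 14-demethylase, Cyp51, had levels of 2.88 against -0.70 in Per2m/m cells, 0.49 against 0.84 in Clk/Clk cells and 0.48 against -0.90 in wild type cells. Its Per2m/m response was 12-fold, and its probe lies at chr5:4081471-4081530 (- strand) of mm9. Dhcr7, the last reductase on the way to cholesterol, had levels of 0.53 against -1.26 in Per2m/m cells, -1.34 against -0.76 in Clk/Clk cells and -0.80 against -0.81 in wild type cells. The wild type response of Dhcr7 was 0.01, inside the spot spread, and the transfected Per2m/m array was the 1 array with a level above 0. Tm7sf2, a sterol reductase, had levels of 0.35 against 0.78 in Per2m/m cells, -0.01 against 1.26 in Clk/Clk cells and 0.16 against 0.84 in wild type cells. It was lower in transfected cells of all 3 genotypes and was the 1 sterol arm gene with a response below 0 in Per2m/m and wild type cells. Nsdhl, Hsd17b7 and Ebp, which act on ring substituents and double bonds, had Per2m/m responses of 0.76, 0.98 and 0.86, Clk/Clk responses of -0.47, -0.36 and -0.17, and wild type responses of 0.75, 0.04 and 0.35. For Hsd17b7 a dimmer probe gave -0.35 in Per2m/m cells.

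**Figure D3:**
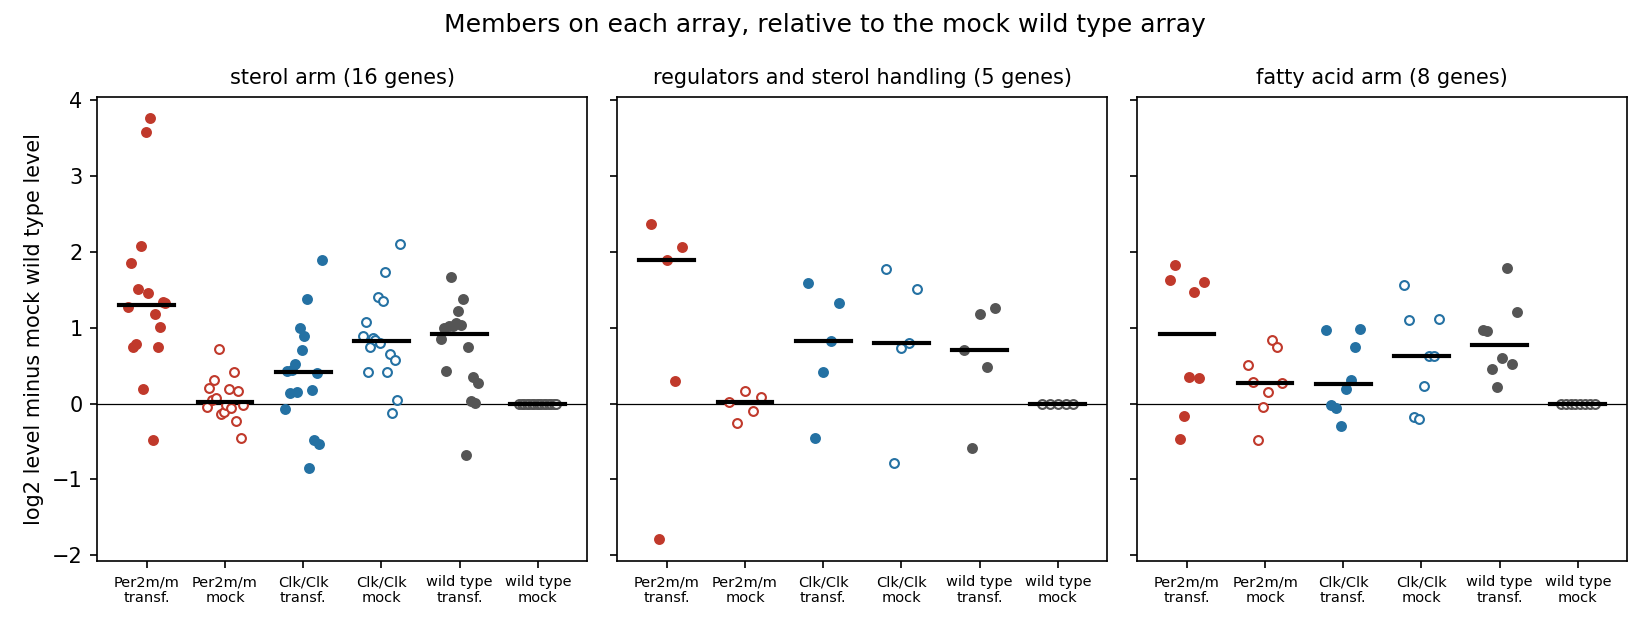
Level of each gene minus its level on the mock wild type array (log2), for the 3 groups of genes on the 6 arrays, with a bar at the median. The sterol arm median lies at 1.30 on the transfected Per2m/m array, 0.42 and 0.83 on the transfected and mock Clk/Clk arrays, and 0.92 on the transfected wild type array.

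Of the 5 regulators and sterol handling genes, Srebf2 ran with the sterol arm and Srebf1 did not. At least 2-fold higher in transfected cells were Insig1, Srebf2 and Stard4 in Per2m/m cells and Srebf2 and Stard4 in wild type cells, and Srebf1 was 2-fold lower in Per2m/m cells, a call lost with normexp background correction (-0.79). Srebf2 had levels of 2.21 against 0.48 in Per2m/m cells, 0.73 against 1.05 in Clk/Clk cells and 1.50 against 0.31 in wild type cells. Srebf1 had levels of -3.09 against -1.56 in Per2m/m cells, -1.76 against -2.09 in Clk/Clk cells and -1.89 against -1.30 in wild type cells. Its response was -1.53 in Per2m/m cells and -0.59 in wild type cells, against 0.33 in Clk/Clk cells, opposite in sign to Srebf2 in each genotype. Insig1, which retains SREBP in the endoplasmic reticulum and is itself an SREBP target, had levels of 0.74 against -1.59 in Per2m/m cells, -0.02 against 0.16 in Clk/Clk cells and -0.92 against -1.62 in wild type cells. Stard4, a cholesterol transfer protein, had levels of 2.45 against 0.47 in Per2m/m cells, 1.70 against 1.90 in Clk/Clk cells and 1.65 against 0.38 in wild type cells. Its dimmer probe gave a response of 0.27 in Clk/Clk cells, against -0.19 from the brighter one. Scap had responses of 0.39 in Per2m/m, 0.02 in Clk/Clk and 0.49 in wild type cells.

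In the fatty acid arm the desaturases Scd1 and Scd2, which put a double bond into stearate, ran with the sterol arm. Scd2 had levels of 6.53 against 4.98 in Per2m/m cells, 4.68 against 5.79 in Clk/Clk cells and 5.66 against 4.70 in wild type cells. Scd1 had levels of 2.99 against 1.87 in Per2m/m cells, 2.33 against 2.93 in Clk/Clk cells and 2.33 against 1.36 in wild type cells. Scd1 and Scd2 are paralogs, and cross-hybridisation between their probes was not tested. Fads2, a desaturase of polyunsaturated fatty acids, had levels of 1.13 against -0.21 in Per2m/m cells, 0.51 against 0.64 in Clk/Clk cells and 0.72 against -0.48 in wild type cells. These responses were 1.34, -0.14 and 1.20, and its dimmer probe gave 0.60, -0.17 and 0.41, in the same order. Elovl6, which lengthens palmitate, had levels of 2.82 against 2.20 in Per2m/m cells, 1.66 against 1.99 in Clk/Clk cells and 3.14 against 1.35 in wild type cells. Its response was 0.63 in Per2m/m cells and 1.79 in wild type cells, the highest wild type response of the 29 genes. The enzymes that make the fatty acid chain differed less. Fasn, the synthase itself, had levels of -0.97 against -0.98 in Per2m/m cells, -0.56 against -0.69 in Clk/Clk cells and -0.06 against -0.51 in wild type cells. Acly, which makes cytosolic acetyl-CoA, had responses of -0.11 in Per2m/m, -0.08 in Clk/Clk and 0.22 in wild type cells, and its dimmer probe gave -0.44 in wild type cells. Acaca, the acetyl-CoA carboxylase, had responses of 0.20 in Per2m/m, -0.04 in Clk/Clk and 0.60 in wild type cells. Fads1 had responses of -0.41 in Per2m/m, 0.11 in Clk/Clk and 0.52 in wild type cells, so its sign in Per2m/m cells was opposite to that of Fads2.

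Mock Clk/Clk cells also had higher levels of these genes than mock wild type cells. The sterol arm had a median difference of 0.83, with 15 of 16 genes above 0 and 5 at least 2-fold higher, beside 10.1% of all genes and a median of -0.07 over all genes. The fatty acid arm had a median difference of 0.63, with 3 of 8 at least 2-fold higher, and the regulators 0.80, with 2 of 5. Fads2 was among those 3 fatty acid arm genes by its brighter probe (1.12), and its dimmer probe gave 0.31. The 5 sterol arm genes were Mvd, Fdft1, Lss, Cyp51 and Acat2, each by its brighter probe, with differences of 1.08, 1.41, 1.35, 1.74 and 2.10. Insig1 and Stard4 differed by 1.78 and 1.52. Srebf1 lay the other way, at -0.79. In transfected cells both synthesis arms were lower in Clk/Clk than in wild type cells, with a sterol arm median of -0.52 and 13 of 16 genes below 0, and a fatty acid arm median of -0.45 with 7 of 8 below 0, beside -0.12 over all genes. The regulators had a median of 0.13 there, with 4 of 5 above 0, and -0.51 with arrays scaled to their median. Relative to all genes the medians ranged over the settings tried from -0.70 to -0.12 in the sterol arm and from -0.63 to -0.03 in the fatty acid arm. At least 2-fold lower were Idi1 (-1.15) and Elovl6 (-1.48), beside 11.2% of all genes. With quantile normalization 0 of 16 sterol arm genes were. With arrays scaled to their median 9 of 16 sterol arm and 5 of 8 fatty acid arm genes were, beside a median of -0.77 over all genes. Acat2 was 2-fold higher (1.63), beside 13.3%. Both comparisons reuse the Clk/Clk and wild type arrays of the responses above, so a high level on the mock Clk/Clk array enters both its difference from wild type and the Clk/Clk response. Of 10 fibroblast markers, 3 were at least 2-fold higher and 2 lower in mock Clk/Clk than in mock wild type cells, beside 10.1% and 10.7% of all genes. Among transfected cells 5 were higher and 3 lower, beside 13.3% and 11.2%. Xist was well above background on the wild type arrays and not on the Clk/Clk arrays. The part of these differences was not tested.

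**Figure D4:**
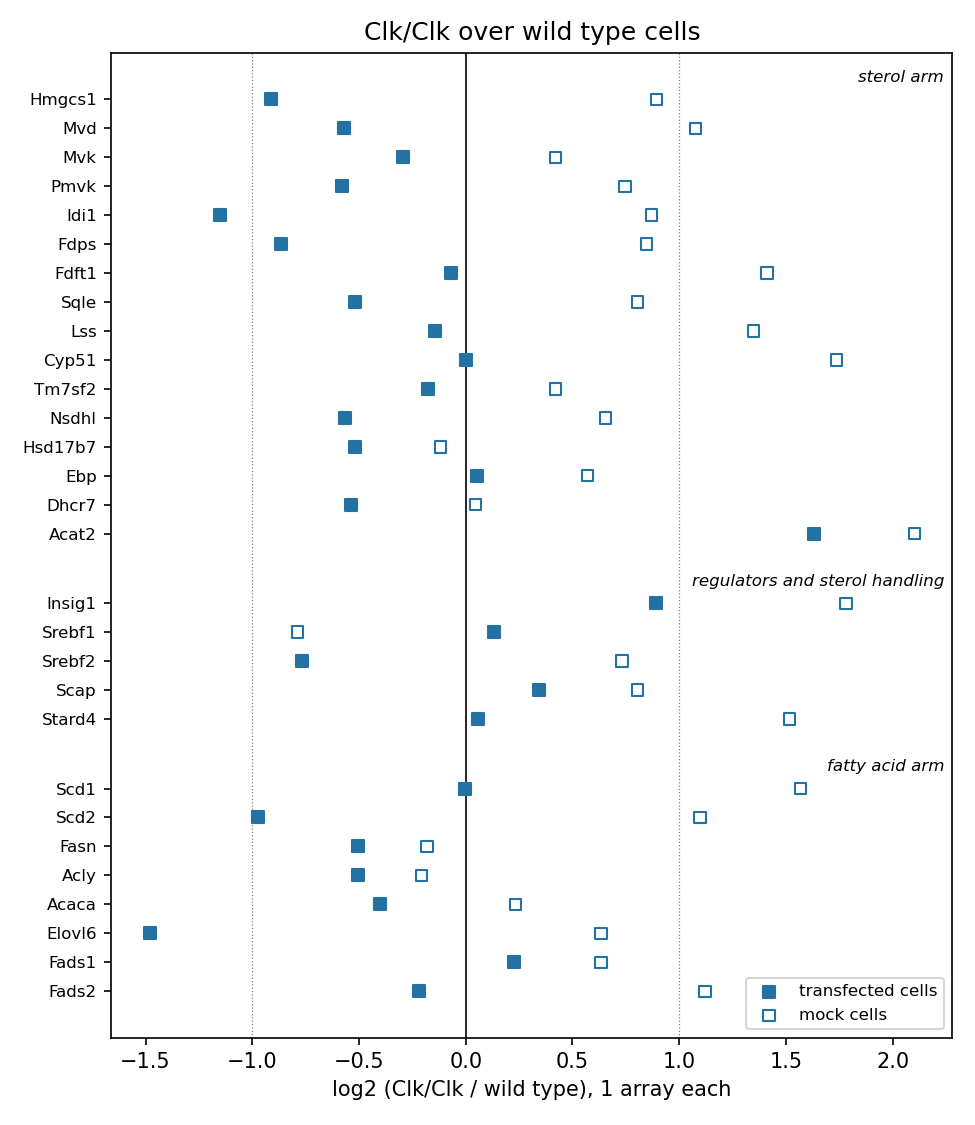
Clk/Clk over wild type (log2) for each of the 29 genes, in transfected cells (filled squares) and in mock cells (open squares), with dotted lines at 2-fold. In mock cells the sterol arm median is 0.83 and in transfected cells it is -0.52. Acat2 is the 1 gene at least 2-fold higher in both.

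Mock Per2m/m cells differed little from mock wild type cells in the sterol arm, with a median of 0.02, 8 genes above and 8 below 0, and none at least 2-fold apart, beside 4.42% of all genes higher and 4.33% lower. In the fatty acid arm the median was 0.28, and Elovl6 and Fads1 lay highest, at 0.85 and 0.75. Among transfected cells the sterol arm was higher in Per2m/m than in wild type cells, with a median of 0.55, 13 of 16 genes above 0 and 5 at least 2-fold higher, beside 14.6% of all genes. These 5 were Cyp51, Sqle, Dhcr7, Acat2 and Fdps, at 2.39, 2.36, 1.33, 1.06 and 1.06. The fatty acid arm had a median of -0.21 there and no gene at least 2-fold apart, beside 16.3% of all genes lower. These comparisons rest on the array that stood apart, and the cause was not tested.

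Over all 6 arrays no member, and none of the 16748 genes, passed limma's test in the additive model of genotype and transfection (two-sided, Benjamini-Hochberg adjusted p, 2 residual degrees of freedom), so the percentage of genes called was 0. At an unadjusted p under 0.05 limma gave 787 genes (4.7%) for transfection, 374 (2.23%) for Per2m/m minus wild type and 1504 (8.98%) for Clk/Clk minus wild type. Of the 29 members 0, 0 and 1 met it, the last being Acat2, higher by 1.87 ± 0.50 in Clk/Clk cells (limma adjusted p = 0.494). The transfection coefficient lay above 0 for 27 of 29 members, and the lowest adjusted p of a member was 0.691. The largest coefficients were those of Sqle (1.61 ± 0.84, standard error), Cyp51 (1.54 ± 0.86) and Stard4 (1.02 ± 0.52). Without the transfected Per2m/m array they were 0.56, 0.51 and 0.54, and 23 of 29 coefficients lay above 0. For Per2m/m minus wild type 22 of 29 coefficients lay above 0, and 6 of 29 did without that array. In Clk/Clk minus wild type 11 of 16 sterol arm coefficients lay above 0, 14 of 16 with quantile normalization and 4 of 16 with arrays scaled to their median. The sterol arm median of this coefficient was 0.10, 0.30 and -0.38 in that order, beside -0.10, -0.13 and -0.59 over all genes. The single arrays of a genotype cannot show whether the Clk/Clk response differs from the others by more than the spread between cultures.

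Other genes of these pathways were less uniform. Of 30 listed by name, 29 were kept, all except Thrsp, and 10 were at least 2-fold higher in transfected cells of the Per2m/m genotype, 0 of the Clk/Clk and 0 of the wild type genotype. At least 2-fold lower were 6, 2 and 4, beside the shares of all genes above. Those 2 were Abca1 and Acss2, and those 4 were Abca1, Abcg1, Nr1h3 and Acacb. Nr1h3, which encodes liver X receptor alpha, had levels of -6.14 against -1.05 in Per2m/m cells, -2.15 against -2.02 in Clk/Clk cells and -2.90 against -1.05 in wild type cells. Abca1 had levels of -6.71 against -2.01 in Per2m/m cells, -2.33 against -1.09 in Clk/Clk cells and -3.00 against -1.86 in wild type cells. Abcg1 had levels of -6.88 against -0.63 in Per2m/m cells, -2.67 against -3.30 in Clk/Clk cells and -4.94 against -0.75 in wild type cells. On the transfected Per2m/m array Nr1h3, Abca1 and Abcg1 were not well above background, and they were at least 11.6-fold, 5.96-fold and 15.5-fold lower there than on the mock Per2m/m array. The lowest level of each gene lay on that array, where markers of macrophages, which also express these genes, summed to 16.6, against 47.2 on the mock Per2m/m array (linear levels, 7 markers, most of it Itgam). At least 2-fold lower in transfected cells were 5 of the 7 in the Per2m/m, 0 in the Clk/Clk and 4 in the wild type genotype. The shares of all genes were 20.8%, 4.12% and 11.8% in that order. The macrophage sum was 56.2 and 60.7 on the transfected and mock Clk/Clk arrays and 23.6 and 44.2 on the transfected and mock wild type arrays. Csf1r, Cd68, Cd14 and Itgam were well above background on all 6 arrays, and the part of such cells was not tested. Vldlr, a lipoprotein receptor, had levels of -3.03 against 1.72 in Per2m/m cells, 2.28 against 2.74 in Clk/Clk cells and 3.58 against 3.78 in wild type cells. Chosen after its values were seen, the sterol gene Sc4mol had a Per2m/m response of 1.33, a Clk/Clk response of -0.22 and a wild type response of 0.95.

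**Figure D5:**
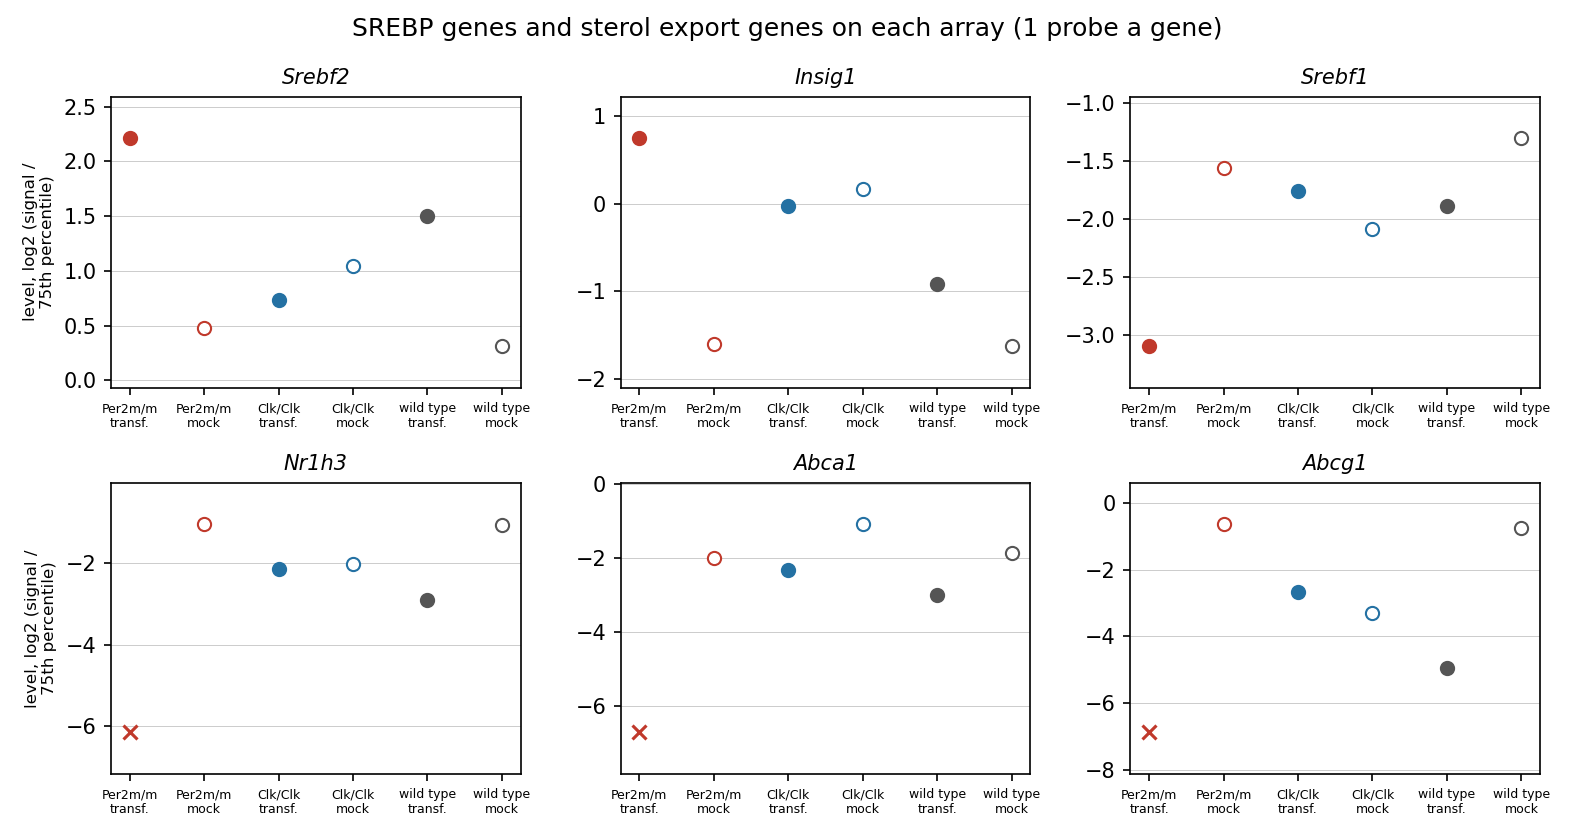
Level of 6 genes on each array, filled for transfected and open for mock cells, as log2 of the signal over the 75th percentile, with a separate axis for each gene. Crosses mark values not well above background. Srebf2 and Insig1 are highest on the transfected Per2m/m array, and Srebf1, Nr1h3, Abca1 and Abcg1 are lowest there.

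The promoters of 6 members are printed here to show what the sequence before the start of genes with large and small responses holds. They are RefSeq sequences of GRCm38.p6, from 250 bases before to 50 after the gene start, given on the gene's strand, 5' to 3'. The members with the largest and smallest Per2m/m response in each arm, each by its brightest probe, were taken among those that matched an entry. In the sterol arm these are Cyp51 and Tm7sf2, and in the fatty acid arm Fads2 and Acly. Hmgcs1 and Insig1 were added after their values were seen. Of 29 members 22 matched an entry. Sqle, Fdft1, Fdps, Scd1, Scd2, Fads1 and Stard4 were not matched. Positions are Hmgcs1 chr13:119690101-119690400 (+), Cyp51 chr5:4104648-4104947 (-), Tm7sf2 chr19:6067801-6068100 (-), Fads2 chr19:10101454-10101753 (-), Acly chr11:100527951-100528250 (-) and Insig1 chr5:28071162-28071461 (+). Capitals mark the sterol regulatory element TCACNCCAC, the E-box CACGTG, a motif bound by CLOCK and related factors, and the CCAAT box, on either strand.
Hmgcs1: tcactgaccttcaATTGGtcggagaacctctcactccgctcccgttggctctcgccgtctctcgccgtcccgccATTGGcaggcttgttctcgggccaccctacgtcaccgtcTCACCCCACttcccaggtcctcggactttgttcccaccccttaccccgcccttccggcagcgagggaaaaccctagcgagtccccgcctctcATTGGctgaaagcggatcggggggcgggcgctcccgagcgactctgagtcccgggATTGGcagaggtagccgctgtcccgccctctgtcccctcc
Cyp51: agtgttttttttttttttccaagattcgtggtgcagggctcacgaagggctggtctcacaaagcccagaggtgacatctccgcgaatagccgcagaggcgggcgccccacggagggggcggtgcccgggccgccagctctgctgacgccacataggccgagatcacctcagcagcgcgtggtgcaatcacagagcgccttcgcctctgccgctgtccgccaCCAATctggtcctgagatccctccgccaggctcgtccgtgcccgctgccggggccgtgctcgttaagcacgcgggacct
Tm7sf2: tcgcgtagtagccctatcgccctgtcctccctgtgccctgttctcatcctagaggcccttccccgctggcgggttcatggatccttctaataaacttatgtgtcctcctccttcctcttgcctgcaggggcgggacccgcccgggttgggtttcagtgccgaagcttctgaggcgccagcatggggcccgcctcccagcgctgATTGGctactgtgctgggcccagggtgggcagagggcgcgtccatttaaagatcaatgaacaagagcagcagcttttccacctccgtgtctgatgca
Fads2: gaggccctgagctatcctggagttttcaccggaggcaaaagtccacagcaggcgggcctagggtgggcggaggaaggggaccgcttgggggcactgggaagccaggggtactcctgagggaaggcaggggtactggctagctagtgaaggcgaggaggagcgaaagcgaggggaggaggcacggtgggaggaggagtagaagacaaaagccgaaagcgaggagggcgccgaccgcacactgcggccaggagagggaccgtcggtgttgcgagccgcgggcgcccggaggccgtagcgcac
Acly: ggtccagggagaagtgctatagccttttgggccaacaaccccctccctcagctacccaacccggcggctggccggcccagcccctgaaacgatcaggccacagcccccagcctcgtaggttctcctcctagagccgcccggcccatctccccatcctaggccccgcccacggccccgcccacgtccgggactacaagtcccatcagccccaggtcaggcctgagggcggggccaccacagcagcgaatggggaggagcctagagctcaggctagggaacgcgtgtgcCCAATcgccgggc
Insig1: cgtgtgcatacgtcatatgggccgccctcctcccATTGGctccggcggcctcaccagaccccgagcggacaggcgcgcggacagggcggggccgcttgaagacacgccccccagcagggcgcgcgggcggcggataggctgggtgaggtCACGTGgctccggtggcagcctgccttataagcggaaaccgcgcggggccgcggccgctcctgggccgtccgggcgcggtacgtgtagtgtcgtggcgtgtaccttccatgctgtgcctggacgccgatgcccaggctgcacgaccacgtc

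The sterol regulatory element was found in the promoter of 1 of the 22 matched genes, Hmgcs1, at position -137 from the start, beside 1.24% of all 32851 promoters. The E-box was found in 4 of the 22, Dhcr7, Hsd17b7, Insig1 and Scap, beside 7.15%. The CCAAT box was found in 12 of 13 matched sterol arm genes and 2 of 5 in the fatty acid arm, beside 37.4%, and the GC box GGGCGG in 12 of 13 and 2 of 5, beside 35.7%. Both strands were searched, and counts of every motif were made per gene over all its windows, while the shares are of single promoter windows. By window the E-box was found in 5 of 28 of the members. In the sterol arm the CCAAT box was found in 12 of 16 windows and the GC box in 13 of 16. A match is a description of letters in this window, and a missing match says only that these letters are not in it.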

How the data were processed

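Total RNA of 6 cultures was measured on single-colour Agilent arrays, 1 array for each group, and samples were grouped by their titles. The deposited scanner output holds an intensity per spot on a linear scale, extracted with Feature Extraction 10.7.1.1 per the file headers, while the submitters' processing notes name 9.5.1.1. Probe coordinates are those of build mm9 per the file headers. The authors' deposited value table also holds intensity, with a median of 23.8 in each column. Its columns followed the log2 signal of their own array (r of at least 0.998 over probes) and held the same sorted values to within 3.99 units. It was used as quantile-normalized intensity, not centred by gene, and the sources used here do not name its software.

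Levels are processed signals divided by the 75th percentile of their array, in log2, with spots of a probe averaged and outlier spots left out (85 to 125 of 59305 an array). None was saturated. Of 55681 probes, 28002 were named by a symbol, 2814 by an accession and 569 by a synonym in a RefSeq gene table of GRCm38.p6, used for names only, and 24296 stayed unnamed. A probe was kept if well above background on at least 1 array, which left 16748 of 22394 named genes. For a gene not well above background on an array, the change is a bound, taken against its own level or, if higher, the dimmest probe there that was well above background.

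limma 3.58.1 in R 4.3.3 fitted genotype plus transfection to all genes (lmFit, eBayes, Benjamini-Hochberg adjusted p under 0.05) and was tested on simulated data. With 1 array a group, its 2 residual degrees of freedom mix noise between arrays with any response that differs by genotype. Its p-values are set against that mixture and not against a spread between replicate cultures. Ratios of 2 arrays have no test and were counted at 2-fold or more with the brighter array well above background, at measured levels. Alternatives were median scaling, quantile normalization, normexp background correction with an offset of 50, the deposited table, other filters, the mean of all probes of a gene, and leaving out arrays. All 29 members are named, with other pathway genes at least 2-fold the same way in 2 genotypes or 8-fold in any. The members and lists were chosen with earlier results of these data known. Python 3.11.15, pandas 2.3.3, numpy 2.4.6 and matplotlib 3.10.9 were used.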

Additional observations from a re-analysis of the deposited data

Results flagged for a closer look

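Each of the 3 results here paired a response of at least 2-fold in one direction in 1 genotype with a response of at least 2-fold in the other direction in another. Each rests on 1 array a group, and the difference was not tested. For Scd2, a stearoyl-CoA desaturase, the Per2m/m response was 1.55 and the Clk/Clk response -1.11, a difference of 2.66 (log2). For Acss2, which makes acetyl-CoA from acetate, the Per2m/m response was 1.52 and the Clk/Clk response -1.51, a difference of 3.03. For Acacb, the mitochondrial acetyl-CoA carboxylase, the Per2m/m response was 1.83 and the wild type response -1.21, a difference of 3.04. All 3 involve the transfected Per2m/m array, which stood apart from the other 5. Acss2 and Acacb were named here after their values were seen.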

How the results depend on the processing

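No gene passed limma's test under any alternative, and the medians of the sterol and fatty acid arms relative to all genes kept their sign in every comparison except mock Per2m/m over wild type cells, where the sterol arm ran from -0.06 to 0.03. The regulators ran from -0.06 to 0.06 there and from -0.05 to 0.38 in transfected Clk/Clk over wild type cells. The model compares transfected with mock cells within genotype. The labels carry no replicate numbers for a further block. The values here are arm medians minus the median over all genes. For the sterol arm the Per2m/m response was 1.05 with quantile normalization, 1.03 with normexp, 1.04 from the deposited table, 1.00 with no filter and 1.12 with genes well above background on all arrays. Its Clk/Clk response was -0.50 with no filter. Its wild type response was 0.74 with quantile normalization and 0.74 from the deposited table, 1.08 with no filter, 0.84 with genes well above background on all arrays and 0.73 with all probes averaged. For the fatty acid arm the Per2m/m response was 0.19 with normexp, 0.0755 with no filter and 0.20 with genes well above background on all arrays. Its Clk/Clk response was -0.22 with no filter. Its wild type response was 0.59 with quantile normalization and 0.59 from the deposited table, 0.88 with normexp, 0.93 with no filter, 0.69 with genes well above background on all arrays and 0.68 with all probes averaged. Clk/Clk over wild type in mock cells was 1.07 and 0.86 (sterol, fatty acid) with quantile normalization, 1.07 and 0.86 from the deposited table, 0.73 and 0.53 with normexp and 0.71 and 0.52 with no filter. Per2m/m over wild type in transfected cells was 0.26 and -0.49 with normexp, and 0.23 and -0.53 with no filter, and 0.57 in the sterol arm without Fdft1, a choice made after seeing the data. The cause was not tested.

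Counts at 2-fold moved further. Regulators lower in the Per2m/m response numbered 1, and 0 with normexp. Sterol arm genes higher in the wild type response numbered 7, and 3 with quantile normalization and from the deposited table. Fatty acid arm genes there numbered 2, 4 with median scaling and 1 with all probes averaged. Sterol arm genes higher in transfected Per2m/m than wild type cells numbered 5, and 3 with quantile normalization, normexp and the deposited table. Fatty acid arm genes higher in mock Clk/Clk than wild type cells numbered 3, and 1 with median scaling. With that scaling the median over all genes was 0.40 for the Per2m/m response, 0.31 for the wild type response and -0.40 and -0.77 for Clk/Clk over wild type in mock and transfected cells. The higher and lower counts over all genes were then 4341 and 3023 for the Per2m/m response (3121 and 3481 with the 75th percentile), 2421 and 1420 for the wild type response (1260 and 1977), 1219 and 3120 for Clk/Clk over wild type in mock cells (1691 and 1794) and 1353 and 6285 in transfected cells (2223 and 1869). With genes well above background on all arrays the lower counts were 1714 (against 3481) for the Per2m/m response, 268 (against 690) for the Clk/Clk response and 762 (against 1977) for the wild type response. Transfection coefficients of the sterol arm had a median of 0.41, which was 0.15 without the transfected Per2m/m array, 0.85 without both Clk/Clk arrays and 0.34 without both wild type arrays. Signal over background did not limit the members, and the number of arrays did.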
